A study of Schizothorax plagiostomus with 18 samples.

Results

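The comparison described here is that of testes with ovaries before spawning in the Himalayan snow trout Schizothorax plagiostomus, a seasonal breeder of mountain rivers. It rests on the 3 pre-spawning testis libraries (male fish) and the 3 pre-spawning ovary libraries (female fish), 6 of the 18 libraries of the series, chosen by their labels for gonad and maturational stage. The other 12 libraries are ovaries and testes sampled at spawning and after it, and they enter here for the estimate of spread and for a look at whether a pre-spawning difference changed later. Per the labels, library 1 of every group came from season 1, library 2 from season 2 and library 3 from season 3. No treatment, genotype or age is labelled, and whether the libraries of a group stem from different fish is not labelled. The p-values therefore describe the spread between libraries, part of which may be technical.

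In teleost fish that breed once a year, the gonads grow before the spawning season. In the ovary, oocytes take up yolk and store maternal RNA and protein for the embryo, surrounded by follicle cells that make steroid hormones. In the testis, germ cells pass through mitosis and meiosis inside cysts formed by Sertoli cells and then become sperm. RNA came from gonad tissue of mixed cell types, so a change in the number of cells of a type and a change in the RNA per cell cannot be told apart.

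The measured units are features, each a single transcript or a cluster of several, and the files do not pair them with gene names. Marker genes of gonad cell types could therefore not be looked up, and the labelled tissues were not checked in that way. Levels are given in counts per 1000000 counts of a library (CPM) and are not divided by transcript length. A high level of one feature against another is thus a statement about counts, not about molecules. Total counts were 43724694, 30406014 and 24682616 in pre-spawning testes 1 to 3, and 30638324, 29496334 and 30359426 in ovaries 1 to 3. A count of 0 was taken to allow up to 3 counts, which is 0.0686 to 0.122 CPM in these libraries and covers counting error only.

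Libraries of one gonad resembled each other more than libraries of different gonads. Over the 47663 features that reached 60 counts in these 6 libraries together, Spearman correlations were computed across features, which do not count as replicates. They were 0.809 to 0.902 between testes, 0.897 to 0.924 between ovaries and 0.565 to 0.685 between a testis and an ovary. Testes 1 and 3 were the least alike pair within a gonad. The biological coefficient of variation, the spread between libraries beyond counting error, was 51.5% in the testes and 42.2% in the ovaries. These values cover 39030 features in the testes and 33262 in the ovaries, filtered for each gonad, so the sets are not the same. As a check for repeated deposits of a library, counts were compared within each gonad, and every pair differed by more than counting noise (chi-square per degree of freedom of at least 65.1).

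Testes held counts in more features than ovaries did. With every library thinned to the same depth of 24682616 counts, 80048, 69419 and 69102 features had at least 1 count in testes 1 to 3. The ovaries had 59195, 59924 and 59855. Each testis lay above each ovary, and testis 1 stood well above the other testes. The means were 72856 ± 6230 and 59658 ± 402 (SD, n = 3 each). The two-sided exact permutation test gave p = 0.1, the smallest value 3 libraries against 3 can give, and an adjusted p of 0.2 over 6 library-level measures (Benjamini-Hochberg). Within seasons 1 to 3 the testis exceeded the ovary by 20853, 9495 and 9247 features.

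The counts of the gonads were also divided differently between features of different make-up. Features made of 1 transcript took 36.2%, 38.8% and 42.8% of counts in testes 1 to 3 and 48.8%, 51.1% and 50.6% in the ovaries. Features that join 10 or more transcripts took 14.1%, 12.2% and 12.8% in the testes and 7.08%, 6.62% and 6.37% in the ovaries. In both measures the gonads did not overlap (exact permutation p = 0.1 each, adjusted p = 0.2, n = 3 each). The share of the 100 leading features was 21.9% ± 2.77 for testis libraries and 19.1% ± 0.49 for ovary libraries (SD, n = 3 each, exact permutation p = 0.2, adjusted p = 0.3). Testis 3 was the highest at 24.99%, and without it the difference of 2.78 percentage points was 1.24. Of the 100 leading features of each gonad, 16 were common to the lists, 16% of each list.

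Before spawning, 11855 features were higher in testis and 10577 were higher in ovary, out of 53536 tested (edgeR quasi-likelihood test, adjusted p under 0.05). Those are 22.1% and 19.8% of the features tested, 41.9% together. Features higher in testis took 33.5%, 35.1% and 33.7% of the counts of testes 1 to 3, and 4.92% to 6.95% in the ovaries. Features higher in ovary took 55.9%, 64.8% and 62.1% of the counts of ovaries 1 to 3, and 8.96% to 12.6% in the testes. These shares describe the features chosen by the test and are no further evidence.

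The near balance of directions depended on how the libraries were scaled. The TMM scaling factors, which correct library totals for composition, were 1.45, 1.37 and 1.29 in pre-spawning testes and 1.01, 0.968 and 1.04 in the ovaries, so fitted fold changes lie below the plain CPM ratios on the testis side. With library totals alone, 15900 features were higher in testis and 7429 in ovary, so that 68.2% of calls fell on the testis side instead of 52.8%. The median log2 fold change of all tested features was 0.42 with TMM and 0.86 with library totals. In plain CPM, every testis lay above every ovary for 37.7% of features, and every ovary above every testis for 18.7%. With season as a block in a fit on the 6 libraries alone, 14328 features passed, 6505 higher in testis and 7823 in ovary. Without ovary 2 or ovary 3, features higher in testis numbered 7655 and 7418.

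The calls were mostly large differences. Features at 0 in all 3 libraries of the lower gonad, 984 on the testis side and 596 on the ovary side, have only a bound to their fold change, taken against 3 counts per library. The median absolute log2 fold change was 2.95 among features higher in testis (2.8 with those features at their bound) and 2.51 among features higher in ovary (2.44 at the bound). With the bounds in place, 9100 features were at least 4-fold higher in testis and 6729 at least 4-fold higher in ovary. The bounds are ratios of plain CPM, without TMM scaling, while the other features keep their fitted values. At 16-fold the counts were nearly equal, 2382 and 2438. At 64-fold they were 437 and 1092, and at 4 times that again 80 and 584. Without the bounds, the fitted counts were 3194 in testis and 2803 in ovary at 16-fold, and 1186 and 1555 at 64-fold. By the fitted values, differences under 4-fold were more numerous on the ovary side, with 2322 testis and 3412 ovary features at an absolute log2 fold change of 1 to 2, and 120 and 309 below 1.

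**Figure D1:**
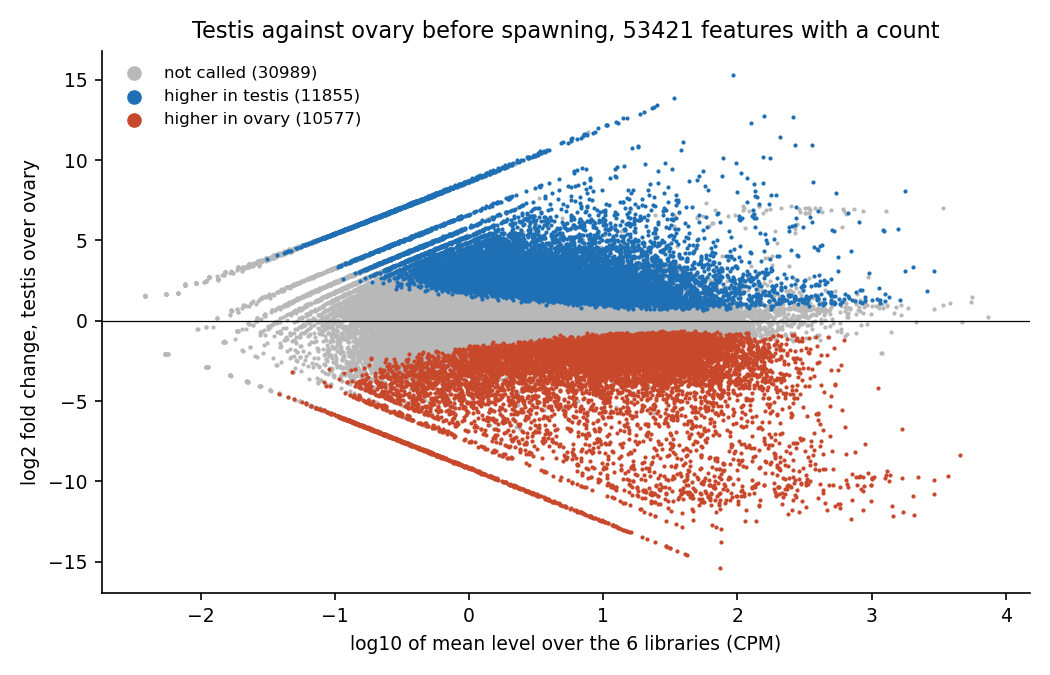
Each point is 1 of the 53421 tested features with a count in the pre-spawning libraries, with the log10 of its mean level over the 6 libraries in CPM on the x axis and its fitted log2 fold change of testis over ovary on the y axis. Blue and red points passed the edgeR test (11855 higher in testis, 10577 higher in ovary), red points reach further from 0 at high levels, the straight rows at the edges are features at or near 0 in one gonad, and a grey band near a log2 fold change of 7 at high levels did not pass.

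The direction of the difference was much alike in the 3 seasons, each of which has 1 testis and 1 ovary and so allows no test of its own. On the scale log2(CPM + 0.1), the features higher in testis had a median ratio of testis to ovary of 2.71, 2.71 and 2.65 in seasons 1 to 3. Those higher in ovary had -1.56, -1.98 and -2.21, and all tested features 0.69, 0.66 and 0.43. Of the features higher in testis, 99.4%, 97.9% and 97% were above 0 in the 3 seasons, and of those higher in ovary 93.5%, 97.5% and 99.1% were below 0. Of all tested features, 63.5%, 61.4% and 56.9% were above 0. The same libraries gave the calls, so these shares are a description. Of 53536 tested features, 12703 were at least 2-fold higher in testis in each season on the CPM scale, and 9629 of these were called. On the ovary side there were 5704, of which 5494 were called. These ratios carry no TMM scaling, and the median of all tested features already lay on the testis side in each season.

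The number of transcripts joined in a feature went with the direction of the difference. Of 26491 tested features made of 1 transcript, 18.1% were higher in testis and 24.6% higher in ovary, against 22.1% and 19.8% of all features, and this order turned with library totals alone, where 58.4% of their calls were higher in testis. Among 18039 features of 2 to 4 transcripts the shares were 22.7% and 17.5%, and among 6112 features of 5 to 9 transcripts 28.8% and 12%. Of 2750 features of 10 to 39 transcripts, 1138 (41.4%) were higher in testis and 179 (6.51%) in ovary. Of 144 features of 40 or more transcripts, 62 were higher in testis, 8 in ovary and 74 did not pass. The median log2 fold change moved from 0.02 for single transcripts to 1.34 for features of 10 to 39 transcripts, beside 0.42 for all features.

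The contrast between the classes was also present among features of like level. Between 10 and 100 CPM, where 14% of single transcripts were higher in testis and 43.9% in ovary, the shares were 36.8% and 12.1% for features of 10 to 39 transcripts. Between 1 and 10 CPM they were 22.4% and 21% for single transcripts and 47.6% and 4.15% for features of 10 to 39 transcripts. At 100 CPM or more the testis shares of these classes were alike, at 20.5% and 22.3%. The ovary shares there were 51.2% for single transcripts and 16.1% for features of 10 to 39 transcripts. Across the 14 other settings of the test, the testis side held 34.1% to 58.4% of the calls of single transcripts and 81.3% to 93.1% of those of features of 10 to 39 transcripts. The median log2 fold change of the latter was 1.4 at spawning and 1.11 after it, in separate libraries, beside 0.17 and 0.04 for all features. How reads were divided between similar transcripts before deposit is not given in the sources used here, and its part in this difference between classes was not tested.

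The level of a feature also went with the direction. Of 16340 features with a mean under 1 CPM over the 6 libraries, 17.8% were higher in testis and 8.58% in ovary. From 1 to 10 CPM the shares were 28.6% and 15.6%. From 10 to 100 CPM they turned, with 17.7% of 14376 features higher in testis and 36.3% in ovary, and at 100 CPM or more 20.9% and 41.5% of 1556 features. Among called features, the median level in the higher gonad was 5.85 CPM on the testis side and 18.7 CPM on the ovary side. With library totals alone in place of TMM, the testis side held 49% of calls from 10 to 100 CPM and 46.5% at 100 CPM or more, still below its 68.2% of all calls under that scaling.

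**Figure D2:**
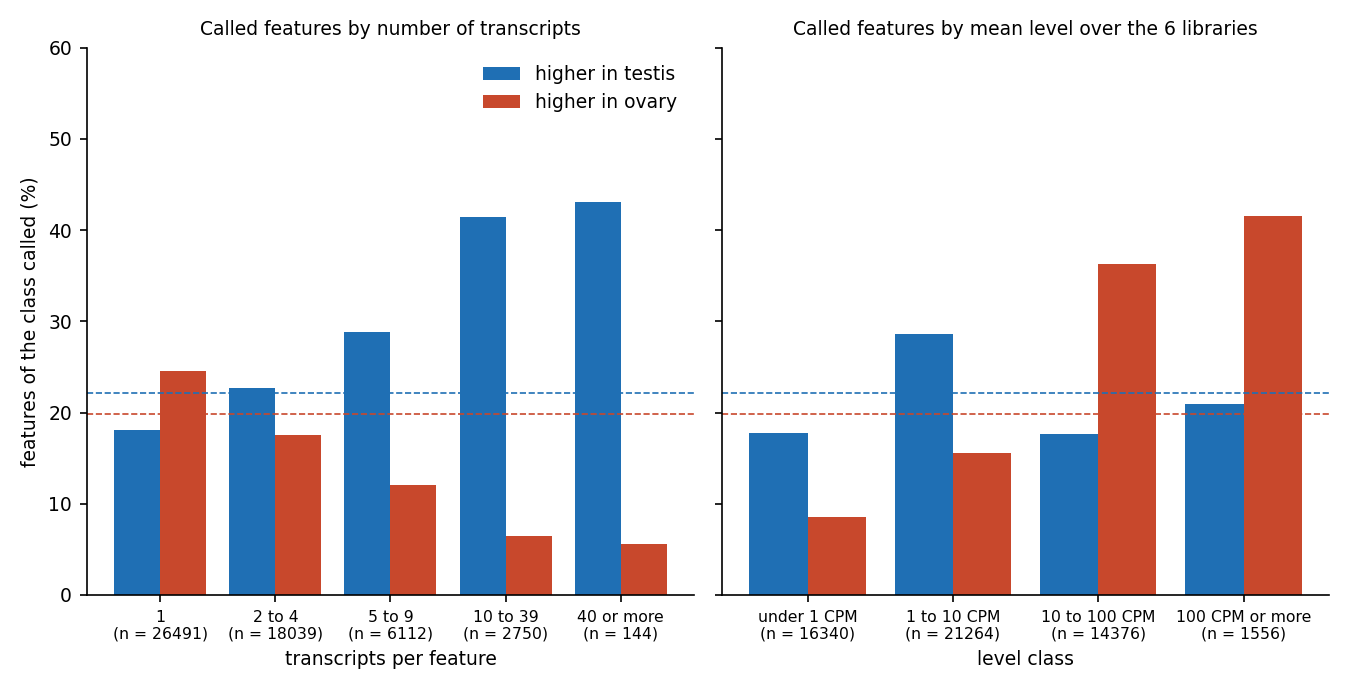
Bars give the percent of the tested features of a class that were higher in testis (blue) or in ovary (red), by number of transcripts on the left and by mean level in CPM on the right, and dashed lines give the percentages over all tested features (22.1% and 19.8%). The testis share rises from 18.1% for single transcripts to 41.4% for 10 to 39 transcripts, and the ovary share rises from 8.58% under 1 CPM to 41.5% at 100 CPM or more. With library totals alone, most calls of single transcripts (58.4%) lie on the testis side.

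On the ovary side, 4 of the 5 named features that took the most counts were single transcripts with close levels in the 3 ovaries. The single transcript cluster39704 stood at 5941, 5890 and 5632 CPM in ovaries 1 to 3 and at 2.74, 1.97 and 19.2 CPM in testes 1 to 3 (edgeR adjusted p = 3.14e-05 for a log2 fold change of -9.9 ± 1.29, SE). Its 3 ovaries differed by a few percent, and testis 3 was the highest testis. The single transcript cluster70400 stood at 7726, 7395 and 7034 CPM in the ovaries and 6.4, 3.55 and 25.9 CPM in the testes (log2 fold change -9.67, SE 1.02). The single transcripts cluster57203 and cluster70329 averaged 5786 ± 614 and 4415 ± 179 CPM in ovaries and 4.46 ± 3.4 and 6.77 ± 8.42 CPM in testes (SD, n = 3 each). In all 4 of these features testis 3 was the highest testis and no testis came near an ovary.

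The remaining one, the cluster of 55 transcripts cluster55, was less even and went against the direction most common in its class. It took 6340, 11820 and 8915 CPM in ovaries 1 to 3, the highest mean level among the named ovary features, and 37, 28.1 and 48.7 CPM in testes (log2 fold change -8.33 ± 0.78, SE, with edgeR adjusted p = 1.88e-06). It is 1 of only 8 features of 40 or more transcripts that were higher in ovary.

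The largest fold changes on the ovary side, with counts above 3 in each testis, were again single or paired transcripts at high levels. The single transcript cluster75982 stood at 1378, 1343 and 1476 CPM in ovaries and 0.183, 0.329 and 0.567 CPM in testes (edgeR adjusted p = 1.24e-05 for a log2 fold change of -12.36 ± 1.45, SE). The feature cluster27622, of 2 transcripts, stood at 4047, 4392 and 4025 CPM in ovaries and 0.8, 0.756 and 2.19 CPM in testes (log2 fold change -12.12, SE 1.3). The single transcripts cluster59652 and cluster40049 averaged 2881 ± 251 and 3430 ± 236 CPM in ovaries, against 0.85 ± 0.319 and 1.22 ± 0.675 CPM in testes (SD, n = 3 each). These 4 features lay 2820 to 3890 times higher in ovaries by the ratio of mean CPM.

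On the testis side, 3 of the 5 named features that took the most counts had 1 testis far above the others, and cluster3095 and cluster954 did not. The feature cluster3095, made of 9 transcripts, stood at 3964, 3850 and 2757 CPM in testes 1 to 3 and 13.3, 4.54 and 11.7 CPM in ovaries (log2 fold change 8.05 ± 0.81, SE, with edgeR adjusted p = 3.13e-06). It was the only one of the 5 leading testis features whose fold change passed 10-fold by the lower end of its 95% interval (log2 6.34). At spawning it stood at 303 ± 246 CPM in testes, and after spawning at 697 ± 108 CPM, but the change of its gonad difference did not pass (edgeR adjusted p = 0.139 and 0.142).

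The other leading testis features had smaller fold changes, and each lost its call in at least 1 other setting. The cluster of 12 transcripts cluster2034 stood at 9990, 2352 and 3756 CPM in testes 1 to 3 and 408, 645 and 273 CPM in ovaries (edgeR adjusted p = 0.0101 for a log2 fold change of 3.12 ± 0.87, SE). Testis 1 was far above the others, and without testis 1 the log2 fold change was 2.32 and the edgeR adjusted p 0.0518. The cluster of 17 transcripts cluster954 stood at 4806, 5047 and 2926 CPM in testes and 1238, 606 and 772 CPM in ovaries (log2 fold change 1.84 ± 0.54, SE, with edgeR adjusted p = 0.0131). All 3 testes lay above all 3 ovaries. Without ovary 2 or ovary 3 its log2 fold change was 1.65 and 1.74 (edgeR adjusted p = 0.0589 and 0.0535), and with season as a block on the 6 libraries 1.8 (0.0501). Without any 1 testis it passed.

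The single transcripts cluster68484 and cluster50127 moved as a pair. The level of cluster68484 was 2252, 2213 and 6943 CPM in testes 1 to 3 and 536, 282 and 31.8 CPM in ovaries (edgeR adjusted p = 0.0179 for a log2 fold change of 3.33 ± 1.03, SE). That of cluster50127 was 1881, 1852 and 6094 CPM in testes and 547, 298 and 22.4 CPM in ovaries (log2 fold change 3.09 ± 1.11, SE, with edgeR adjusted p = 0.0354). Both were highest in testis 3 and lowest in ovary 3, so that their log2 ratios within seasons 1 to 3 were 2.07, 2.97 and 7.77 for the former and 1.78, 2.64 and 8.08 for the latter. With season as a block on the 18 libraries cluster50127 had a log2 fold change of 2.89 (edgeR adjusted p = 0.0737), and cluster68484 passed. With the block on the 6 libraries neither passed, at log2 fold changes of 3.34 for cluster68484 and 3.09 for cluster50127 (edgeR adjusted p = 0.0863 and 0.124). Without testis 3 they fell to 2.49 and 2.2 (0.0718 and 0.134). Without ovary 2 they were as large as with all libraries, 3.33 and 3.11, but did not pass (0.0569 and 0.0901), and without ovary 3 they were 2.79 and 2.52 (0.0547 and 0.0927).

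**Figure D3:**
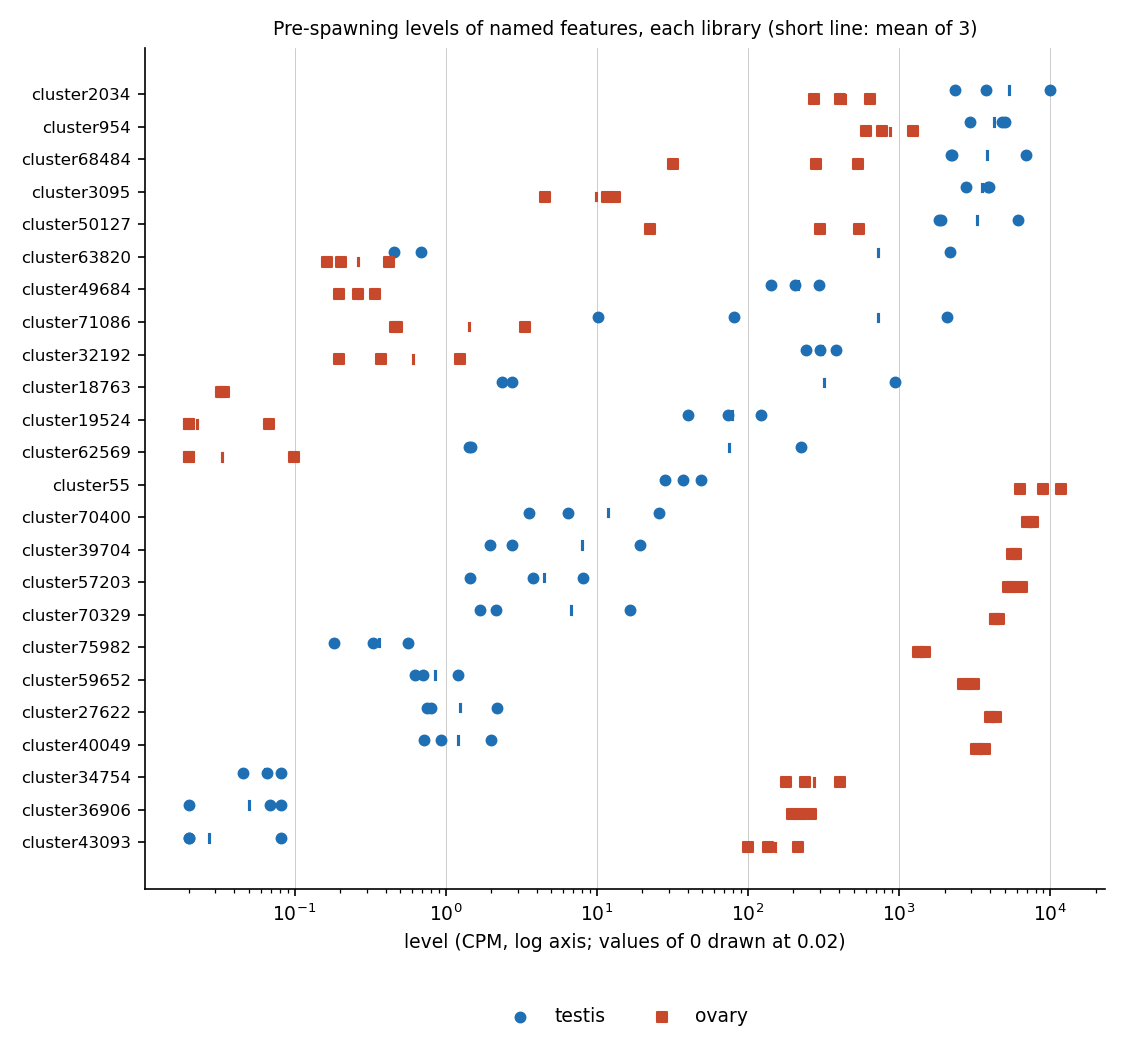
Levels in CPM on a log axis of 24 named features in each of the 3 pre-spawning testes (blue circles) and ovaries (red squares), with short lines at the means and values of 0 drawn at 0.02. In the lower 12 features no ovary lies far above the others, though the ovaries of cluster34754 range from 180 to 405 CPM. Among the upper 12, features such as cluster63820, cluster71086 and cluster18763 have 1 testis far above the others. Others of the upper 12 are more even, such as cluster32192 with testes at 241 to 385 CPM.

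Among features of at least 10 CPM in testis and over 3 counts in each ovary, the largest fold changes on the testis side were of mixed kinds. The single transcript cluster49684 stood at 206, 294 and 142 CPM in testes 1 to 3 and 0.196, 0.339 and 0.264 CPM in ovaries (edgeR adjusted p = 1.48e-05 for a log2 fold change of 9.19 ± 1.1, SE), and cluster32192 at 302, 385 and 241 CPM against 0.196, 0.373 and 1.25 CPM (log2 fold change 8.56, SE 1.3). The feature cluster63820, by contrast, was high in 1 testis and stood at 0.457, 2173 and 0.689 CPM in testes and 0.424, 0.203 and 0.165 CPM in ovaries. Its fitted log2 fold change of 10.97 (SE 2.68, edgeR adjusted p = 0.00487) came from testis 2, and without that library it was 0.67 with an edgeR adjusted p of 0.686. With season as a block on the 6 libraries it was 2.82 (edgeR adjusted p = 0.411). The feature cluster71086 stood at 10.2, 80.8 and 2088 CPM in testes and 3.33, 0.475 and 0.461 CPM in ovaries (log2 fold change 8.63 ± 3.11, SE, with edgeR adjusted p = 0.0353). Without testis 3 its log2 fold change was 4.56 (edgeR adjusted p = 0.169). Without ovary 1, 2 or 3 it stayed at 10.21, 8.21 and 8.19 but did not pass (0.0628, 0.106 and 0.106), and with the block on the 6 libraries it was 6.66 (0.0774).

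A single high library was more frequent among features higher in testis than among features higher in ovary. The gap was smaller over all tested features of at least 1 CPM, but the level limits of these sets differ. Over all tested features of at least 1 CPM in the gonad, 1 testis was at least 10 times the next in 2.97% and 1 ovary in 1.47%, with median coefficients of variation of 38% and 32.3%. The coefficient of variation over the 3 testes had a median of 45.3% among the 11855 features higher in testis, and over the 3 ovaries a median of 32.1% among the 10577 features higher in ovary. Among called features without a level limit, 1 testis was at least 10 times the next in 692 of 11855 (5.84%). For 1 ovary this held in 114 of 10577 (1.08%). Shares over all tested features at 10 CPM or more were not computed. Among called features of at least 10 CPM, 1 testis was at least 10 times the next in 266 of 4332 features (6.14%), and 1 ovary at least 10 times the next in 21 of 6803 (0.309%). Of those 266 features, testis 1 led in 171, testis 2 in 10 and testis 3 in 85. The 171 features took 2.5% of the counts of testis 1, 0.119% and 0.0716% in testes 2 and 3, and 0.0264% to 0.0284% in the ovaries.

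A further set of features had large fitted differences that did not pass the test, and it was chosen after its values were seen. It holds 64 features with a fitted log2 fold change of at least 5, at least 10 CPM in testes and an adjusted p above 0.05, where the mirrored condition held for 4 features on the ovary side. They took 0.162%, 0.634% and 9.67% of the counts of testes 1 to 3, and 0.0733%, 0.00343% and 0.00214% in ovaries 1 to 3. Testis 3 was the highest testis for 62 of the 64. The leading one, cluster2035, made of 12 transcripts, stood at 203, 888 and 19370 CPM in testes and 115, 1.42 and 5.44 CPM in ovaries (edgeR adjusted p = 0.0602 for a log2 fold change of 7.03 ± 2.9, SE). Of the 64, 56 had a Pearson correlation of at least 0.9 with it over the 18 libraries on the scale log2(CPM + 0.1), which share the depth of each library. The pre-spawning libraries used for the choice are among these 18, so part of this likeness follows from the choice. The share of other features that reach 0.9 was not computed, so the number is a description only. Ovary 1 held more of the set than ovaries 2 and 3, and testis 3 more than testes 1 and 2.

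Some features were at or near 0 in the other gonad. In the testes 218 features reached at least 1 CPM in each library with at most 3 counts in any ovary, and in the ovaries 372 features met the mirrored condition. The ovary features were mostly single transcripts (290 of 372) with a median of 13 CPM and a highest level of 275 CPM. Of the testis features, 90 of 218 were single transcripts, with a median of 2.74 CPM and a highest level of 317 CPM. In the later libraries, 227 of the 372 ovary features and 64 of the 218 testis features also held 1 CPM in their own gonad. Of the 372, 213 stayed at or under 3 counts in every later testis, and 111 met both conditions. Of the 218, 44 stayed at or under 3 counts in every later ovary, and 13 met both. With 0 counts required in the other gonad, 45 testis and 147 ovary features remained, and with at least 10 CPM required, 10 and 144. Leaving out testis 1, 2 or 3 gave 333, 346 and 357 testis features, and leaving out ovary 1, 2 or 3 gave 475, 359 and 361, since fewer libraries then had to meet the condition.

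The ovary features of this kind with the highest levels were single transcripts present in each ovary. The feature cluster34754 stood at 240, 405 and 180 CPM in ovaries 1 to 3 and had 6 counts in the 3 testes, a ratio of 4510 with an exact 95% counting interval from 2070 to 12300. The feature cluster36906 stood at 197, 261 and 225 CPM with 5 counts in testes, a ratio of 4490 (interval 1920 to 13800). The feature cluster43093 stood at 136, 215 and 101 CPM with 2 counts in testes, a ratio of 7400 (interval 2050 to 61100). These intervals cover counting error only. All 3 passed the test, with edgeR adjusted p of 1.54e-06, 4.48e-06 and 1.15e-06.

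On the testis side, such features were less even. The feature cluster19524, of 2 transcripts, stood at 73.7, 122 and 40.1 CPM in testes 1 to 3 and had 2 counts in the ovaries, a ratio of 3630 (exact 95% counting interval 1000 to 30000, edgeR adjusted p = 0.00121). It stood higher at the later stages, at 1100 ± 1260 CPM in spawning and 1140 ± 172 CPM in post-spawning testes (SD, n = 3 each). The change of its gonad difference did not pass (edgeR adjusted p = 0.715 and 0.901), and testes were not tested between stages. The feature cluster18763 stood at 2.36, 2.73 and 946 CPM in testes with 3 counts in ovaries, and cluster62569 at 1.42, 1.48 and 223 CPM with 3 counts in ovaries. The ratios were 7190 (exact 95% counting interval 2460 to 34900) and 1710 (585 to 8300). For both, testis 3 carried nearly all the counts, and their fitted log2 fold changes of 12.72 and 10.66 were 5.65 and 4.86 without it. Both still passed without testis 3 (edgeR adjusted p = 0.00723 and 0.0197), and neither had a DESeq2 adjusted p.

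Transcripts whose identifiers share a stem can lie in several features, and where several of these were called, they mostly had the same direction. Of 16499 stems with several tested features, 5286 had at least 2 called ones, so most stems do not enter this count. Over all called features, 52.8% were higher in testis. Of 5286 stems with at least 2 called features, 3012 had all of them higher in testis, 1895 all higher in ovary, and 379 (7.17%) had features in both directions. Without testis 1, testis 3, ovary 2 or ovary 3, the stems with both directions numbered 251, 221, 228 and 189. Features of a stem may share reads, a common stem need not mean a common gene, and NonamEVm000000 alone was spread over 218 features.

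The stems with features in both directions at the highest levels are given here by library. For stem NonamEVm015372, which lies in 4 features, cluster17112 stood at 119, 377 and 384 CPM in testes 1 to 3 and 35.5, 27.5 and 17.6 CPM in ovaries (log2 fold change 3.03 ± 0.66, SE, with edgeR adjusted p = 0.00231). Its partner cluster55835 stood at 12.7, 22.8 and 23.8 CPM in testes and 998, 688 and 661 CPM in ovaries (edgeR adjusted p = 1.15e-06 for a log2 fold change of -5.73 ± 0.5, SE). The partners thus went in opposite directions in each of the 3 seasons. For stem NonamEVm011525, in 7 features, cluster58930 stood at 271, 241 and 136 CPM in testes and 47.4, 10 and 19.3 CPM in ovaries (log2 fold change 2.63 ± 0.66, SE, with edgeR adjusted p = 0.00554), and cluster29193 at 0.435, 0.559 and 1.22 CPM in testes against 525, 489 and 438 CPM in ovaries (edgeR adjusted p = 6.86e-07 for a log2 fold change of -9.79 ± 0.79, SE). Here too the partners lay apart in every library. Within the widely spread stem NonamEVm000000, cluster15651 averaged 1702 ± 266 CPM in testes and 597 ± 157 in ovaries (edgeR adjusted p = 0.0427, and 0.0587 to 0.156 in 8 other settings), and cluster9545 140 ± 5.94 and 357 ± 118 (edgeR adjusted p = 0.00121, SD, n = 3 each).

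**Figure D4:**
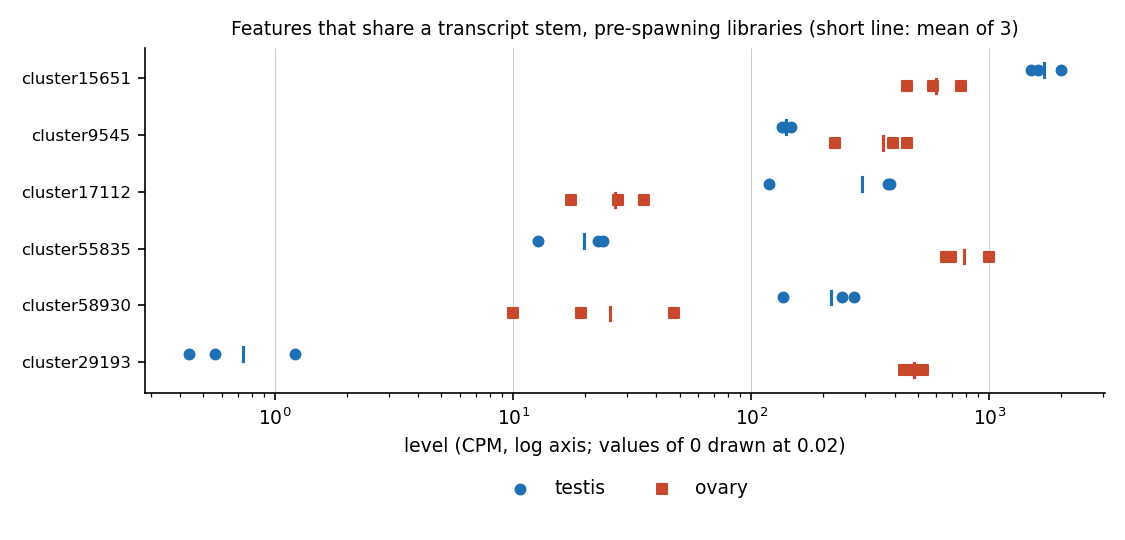
Levels in CPM on a log axis of the 6 features of the 3 stems named in the text, in each pre-spawning testis (blue circles) and ovary (red squares), with short lines at the means. In each pair the upper feature is higher in all testes and the lower feature higher in all ovaries, and the widest gap is that of cluster29193, at 438 to 525 CPM in ovaries and 0.435 to 1.22 CPM in testes.

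A few of the most counted features showed no difference that passed. The single transcript cluster61036 stood at 8748, 8486 and 9730 CPM in testes and 8853, 1983 and 6128 CPM in ovaries (log2 fold change 0.25, 95% interval -1.48 to 1.98, edgeR adjusted p = 0.822). The single transcript cluster32980 stood at 5527, 4651 and 5552 CPM in testes and 5924, 1471 and 4962 CPM in ovaries (log2 fold change -0.07 after TMM scaling, interval -1.87 to 1.72). Ovary 2 was low for both, and these intervals still allow differences of over 2-fold either way. The cluster of 13 transcripts cluster1569 was held more closely, with means of 2428 ± 801 CPM over testes and 1871 ± 418 CPM over ovaries (SD, n = 3 each), with a log2 fold change of -0.05 after TMM scaling and an interval from -0.78 to 0.69. Fold changes this near 0 had no fixed sign: with library totals alone those of cluster32980 and cluster1569 were 0.36 and 0.38, and without ovary 2 that of cluster61036 was -0.16, none of them passing.

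The pre-spawning difference was compared with that of the later libraries, which are separate samples. Their spread entered the fit that gave the pre-spawning calls, so the shares below are a description and not independent evidence. Of the features higher in testis before spawning, every testis lay above every ovary for 63.7% at spawning and 65.8% after it, against 25.2% and 30.3% of all tested features. Of those higher in ovary before spawning, every ovary lay above every testis for 81.5% and 80.1%, against 26% and 25.4% of all features. The median log2 ratio of mean CPM of the testis features was 1.73 at spawning and 1.48 after it, and that of the ovary features -2.2 and -2.19. Over all tested features this median was 0 at spawning and -0.0269 after it, against 0.735 before spawning. The centre of this scale, which carries no TMM scaling, thus differed between the stages.

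The number of features that passed a direct test for a change of the gonad difference depended strongly on the method. Between pre-spawning and spawning 8 of 53536 features (0.0149%) passed, with 7638 at an unadjusted p under 0.05 (edgeR), and with season as a block 0 passed (6799 unadjusted). Between pre-spawning and post-spawning 146 (0.273%) passed, 73 in each direction, and 41 with the block. With no filter on low counts the numbers were 2242 and 2962, and with DESeq2 1398 and 1858. Of those 146, 66 had been called higher in testis before spawning, and for 59 of them the difference fell, while 26 had been called higher in ovary, and for 22 of them the difference moved towards testis. Both the pre-spawning call and this test use the pre-spawning libraries, so a move back towards 0 is favoured by the choice. These counts hung on single libraries. Without testis 1, 2 or 3, the counts to spawning were 203, 0 and 0 (10008, 6072 and 6134 unadjusted, edgeR), and without ovary 1, 2 or 3 they were 4, 0 and 1 (8211, 6128 and 6817 unadjusted). The counts to post-spawning were 443, 19 and 38 without testis 1, 2 or 3, and 45, 26 and 16 without ovary 1, 2 or 3.

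Among the features named here for a changed gonad difference between pre-spawning and post-spawning libraries, 2 were high in testes before spawning and low after it. The single transcript cluster41017 stood at 139, 677 and 239 CPM in pre-spawning testes and 0.23 ± 0.171 CPM in ovaries (log2 fold change 10.13 ± 1.3, SE, with edgeR adjusted p = 2.83e-05). It averaged 7.73 ± 6.8 CPM in spawning testes and 2.4 ± 0.499 CPM in post-spawning testes, with 10.7 ± 15.2 CPM in post-spawning ovaries (SD, n = 3 each). The feature cluster14199, of 3 transcripts, had the same course in testes. It fell there from 103, 374 and 232 CPM before spawning to 4.77 ± 4.7 and 1.09 ± 0.249 CPM. In ovaries it rose from 0.371 ± 0.528 CPM before spawning to 9.23 ± 6.78 CPM after it. Both features thus had higher means in ovaries than in testes after spawning. The post-spawning log2 fold change was -3.04 for cluster14199 (edgeR adjusted p = 0.0256) and -1.99 for cluster41017 (edgeR adjusted p = 0.0861). The change of the log2 difference was -12.12 (SE 1.55) for cluster41017 and -11.92 (SE 1.66) for cluster14199, each with an edgeR adjusted p of 0.0094.

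The features cluster607 and cluster161, of 22 and 38 transcripts, crossed over the other way, from higher in ovary to higher in testis. Before spawning cluster607 stood at 5.15, 3.29 and 4.29 CPM in testes and 15.9, 9.93 and 17.5 CPM in ovaries (edgeR adjusted p = 0.00235 for a log2 fold change of -2.2 ± 0.48, SE), and after spawning at 12.3 ± 4.87 and 1.89 ± 0.679 CPM. Before spawning cluster161 stood at 4.99, 3.72 and 4.7 CPM in testes and 10.5, 6.95 and 14.2 CPM in ovaries (log2 fold change -1.67 ± 0.49, SE, with edgeR adjusted p = 0.0131), and after spawning at 15.1 ± 5.44 and 1.41 ± 0.794 CPM (SD, n = 3 each). Its pre-spawning call was lost with library totals alone (edgeR adjusted p = 0.0619) and without ovary 3 (0.0543).

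**Figure D5:**
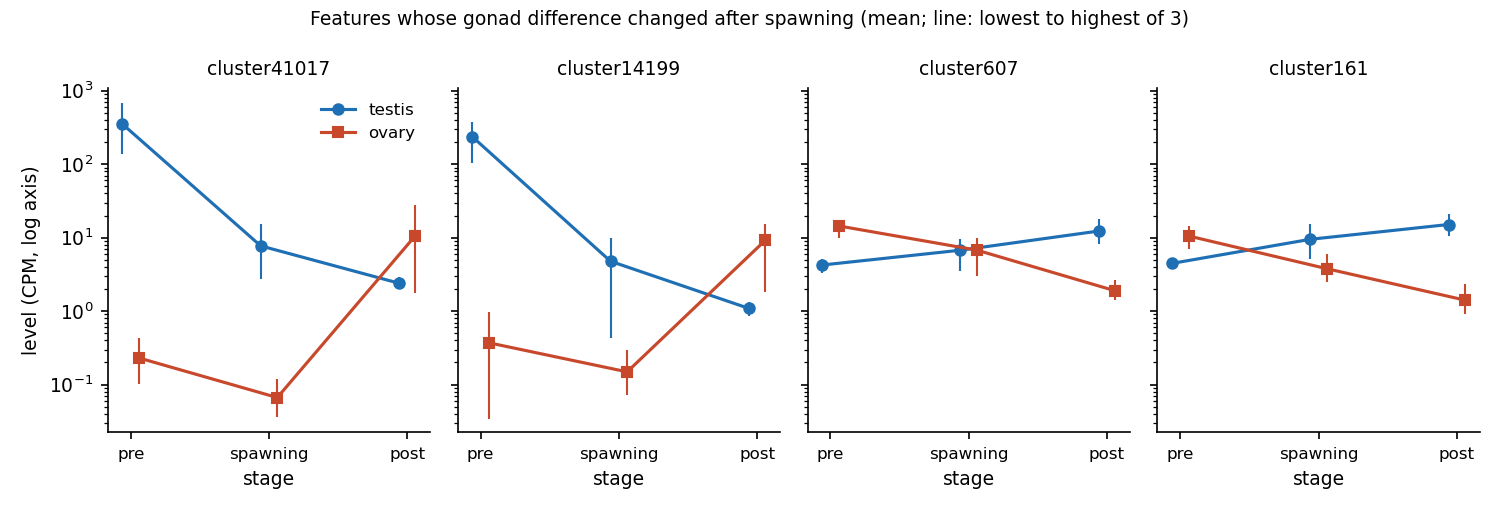
Mean level in CPM on a log axis of the 4 features named for a changed gonad difference, in testes (blue circles) and ovaries (red squares) before, at and after spawning, with vertical lines from the lowest to the highest of 3 libraries. Testis levels of cluster41017 and cluster14199 fall from 351 and 236 CPM to 2.4 and 1.09 CPM, below post-spawning ovary means of 10.7 and 9.23 CPM. The lines of testis and ovary means cross for all 4 features.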

How the data were processed

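Per the labels' protocols, RNA came from a Trizol extraction, an rRNA depletion kit for human, mouse and rat samples was applied, and the libraries were built for Illumina sequencing. The authors deposited whole-number counts per feature for 18 libraries and a map of 251830 transcripts to 135031 features. The tools fastp and Salmon are listed in the submitters' processing notes, and the counts may be rounded estimates. Tool versions, the reference transcriptome and the clustering method: not given in the sources used here. All values were used as deposited, and 0 columns were left unmatched.

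CPM were computed from the counts and library totals, and 24700000 to 43700000 counts stood behind each pre-spawning library. Counts were tested with edgeR 4.0.16 (glmQLFit, glmQLFTest, robust=FALSE, TMM, filterByExpr on the group) in R 4.3.3. The fit used 6 group means on 18 libraries, with Benjamini-Hochberg adjustment over 53536 features and a threshold of 0.05. Features left out by the filter held 0.139% to 1.24% of a library's counts. Standard errors came from the F statistic, and the script was tested on simulated data. Library values were compared by two-sided exact permutation in SciPy 1.17.1. Counting intervals of ratios are exact binomial intervals at 95%. Alternatives were RLE scaling, library totals alone (added after the scaling factors were seen), other filters, DESeq2 1.42.0, a fit on 6 libraries, season as a block and leaving out each library.

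The labels give season as the batch, equal to the library number, so season as a block was an alternative, and the fit reported has no season term. The deviations of testis and ovary from their group means had correlations of -0.169, -0.0806 and -0.028 in seasons 1 to 3, across features, and -0.0759 to 0.128 between a testis and an ovary of different seasons.

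Features and lists were chosen with earlier results of these data known. Features named are called ones whose libraries do not overlap, in each direction: the 5 of highest level with at least a 2-fold difference, the 4 of largest fold change with at least 10 CPM and over 3 counts in each library of the lower gonad, the 3 of highest level at or under 3 counts there, and the 2 whose gonad difference changed with the smallest adjusted p. To these come 3 stems with features in both directions and 3 features of high level with an absolute log2 fold change under 0.5. Gene lists by symbol could not be applied.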

Additional observations from a re-analysis of the deposited data

Results flagged for a closer look

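The testis-ovary difference of 4 named features was not the same after spawning as before it, by the interaction test of edgeR. The change of the log2 difference was -12.12 for cluster41017 and -11.92 for cluster14199. It was 4.97 for cluster607 (SE 0.69) and 5.18 for cluster161 (SE 0.71), and the edgeR adjusted p was 0.0094 for each of the 4. They were named because this test gave them the smallest adjusted p, so the values describe the extremes of 53536 features. Between pre-spawning and spawning libraries none of the 4 passed, with edgeR adjusted p of 0.408, 0.262, 0.168 and 0.125.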

How the results depend on the processing

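The count of features that differed before spawning, 22432, stayed within 1.5 times under each setting except the block on season in the 6-library fit (14328, of which 6505 higher in testis). Leaving out a library gave 16304 to 18835 in all and 7418 to 10184 higher in testis. No feature called in both turned direction, except 4 without testis 1. The block moved no other count of that comparison by over 1.5 times. Changes of the gonad difference depended more on the setting (edgeR unless named). From pre-spawning to spawning, against 8, library totals alone gave 1, no filter 2242, DESeq2 1398, the replicate block 0 (6799 at an unadjusted p under 0.05), and leaving out a library 0 to 203 (0 without testis 2, testis 3 or ovary 2, with 6072, 6134 and 6128 unadjusted). From pre-spawning to post-spawning, against 146, they were 297, 2962, 1858, 41 and 16 to 443. Features near 0 in the other gonad numbered 45 in testis and 147 in ovary with 0 counts required, 139 in testis with at most 3 counts in all, 10 and 144 with at least 10 CPM, and 333 to 475 in testis with a library left out. Stems with both directions numbered 114 at 10 CPM or more, 139 with the block on 6 libraries and 189 to 260 with a library left out. The effective number of features, the exponential of the Shannon entropy, differed by 84.1 (testis minus ovary) and by -511.1 to 706.9 with a library left out. Of the 34 called among the 37 named features, 8 lost their call in at least 1 setting and 0 turned, with no DESeq2 adjusted p for 3 (cluster63820, cluster18763 and cluster62569). All 3 named features that were not called changed sign in some setting without passing. The cause was not tested. Depth limits features under about 1 CPM.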

Other observations

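The 64 features led by cluster2035 took 9.35%, 3.86% and 0.00635% of counts in spawning testes 1 to 3 and 5.32%, 0.002% and 0.00278% in post-spawning testes 1 to 3. In post-spawning ovaries 1 to 3 they took 0.00929%, 0.498% and 0.377%, and at most 0.00479% in any spawning ovary. The highest testis was that of season 3 before spawning and that of season 1 at the later stages.

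The 171 features led by pre-spawning testis 1 had another course. They took 2.03%, 0.95% and 1.21% of counts in spawning testes 1 to 3, against 2.5%, 0.119% and 0.0716% in pre-spawning testes 1 to 3, and 0.53% to 0.621% in post-spawning testes. All 6 later testes lay above pre-spawning testes 2 and 3 in that sum. The features were chosen for a level in testis 1 at least 10 times that of the next pre-spawning testis. Low sums in pre-spawning testes 2 and 3 follow from that choice, and it favours this order. The 10 features led by pre-spawning testis 2, cluster63820 among them, took 0.84% of its counts and at most 0.00351% in any other of the 18 libraries. They were chosen in the same way, so their low sums in the other pre-spawning testes are no separate result.

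Features at least 64-fold higher in ovary by the fitted fold change, 1555 in number, left a small sum in every testis, at 759, 612 and 829 CPM in testes 1 to 3 against 207400 to 272400 CPM in ovaries. The 1186 features at least 64-fold higher in testis summed to 210, 78.3 and 130 CPM in ovaries 1 to 3 against 23370 to 35130 CPM in testes. Both sets were chosen by their fold change in these same libraries, so small sums in the other gonad follow from the choice.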
